A study of Mus musculus with 2 samples.

Results

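Colony-stimulating factors are secreted proteins that drive the growth, survival and differentiation of myeloid cells, and the 10 genes described here are 3 of these ligands and 7 receptor genes of the same and closely related systems. Csf1, Csf2 and Csf3 encode M-CSF, GM-CSF and G-CSF. Csf1r encodes the receptor of M-CSF and Kit that of stem cell factor, both receptor tyrosine kinases, and Csf3r encodes the receptor of G-CSF. Csf2ra and Il3ra encode the ligand-specific alpha chains of the GM-CSF and IL-3 receptors, and Csf2rb and Csf2rb2 encode their signalling beta chains, of which Csf2rb is shared with IL-5 and Csf2rb2 is a mouse copy that serves IL-3. In tumour-bearing hosts these factors expand immature myeloid cells in the marrow, M-CSF favouring monocytes and macrophages and G-CSF favouring granulocytes. The members were taken by name, and every non-control probe whose transcript identifier belongs to 1 of them in RefSeq was used, which gave 16 probes for all 10 of them among 20653 genes named on the array.

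M-MDSCs, monocytic myeloid-derived suppressor cells, are immature myeloid cells that restrain T cells, and here came from tumours of 4T1, a line of mouse mammary carcinoma. Female BALB/c mice (BABL/c in the labels) were given 1000000 4T1 cells under the skin and were then kept for 16 days on a normal-salt diet (NSD, chow with 0.4% NaCl plus tap water) or a high-salt diet (HSD, chow with 4% NaCl and water with 1% NaCl). Cells were isolated from the tumours with a magnetic bead kit and pooled in equal numbers within a diet, and each pool was measured on 1 single-colour array. Because each diet had 1 array, no spread between mice can be given, the diets could not be tested against each other, and the precision of each value is limited by the number of arrays. A difference in the number of cells of a type cannot be told apart from a difference in RNA per cell in such pools. Of 39413 probes with a value on both arrays, 71.9% were called well above background for NSD and 72.4% for HSD, and no spot was saturated. Signals are processed spot intensities, and a log2 fold change is HSD minus NSD after the 75th percentile of each array, 252 intensity units for NSD and 233 for HSD, had been subtracted on the log2 scale. This scaling adds 0.11 to each log2 difference between the raw signals.

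The cell type of the labels was checked with marker genes. All 9 matched monocyte markers were well above background on both arrays. They include Itgam (CD11b), used in the study to define both the monocytic and the granulocytic subset, with signals of 31564 for NSD and 31043 for HSD. Ly6c1 had 51811 and 48478, and the monocyte receptor gene Ccr2 had 259 and 139. All 11 matched neutrophil markers, genes of granule proteins and of granulocyte surface receptors, were well above background on both arrays as well. Ly6g and Ly6c2, which define the granulocytic and the monocytic subset, found no matching transcript and were not analysed here.

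Most of the genes differed by less than 1.5-fold between the diets. Of the 10 genes, 9 had a probe well above background on at least 1 array. At the 1.5-fold threshold that the study used, 1 of the 9 was higher with HSD (Csf3) and 1 was lower (Il3ra). That is 22.2% of them, against 20.2% of the 16312 genes on the array that could be counted, and by direction 11.1% against 9.86% higher and 11.1% against 10.3% lower. The share is near the background and is no result about these genes. The median log2 fold change of the 9 genes was 0.15, and over all genes it was 0.045. Among the 8 genes measured on both arrays, 5 had a higher scaled signal with HSD and 3 a lower one. The sign of small differences depends on the scaling. Over all probes measured on both arrays, the median log2 difference was 0.058 with the scaling used and −0.0096 with cyclic loess. Of the calls past 1.5-fold over all probes, 53.4% were higher with the scaling used and 42.4% with cyclic loess.

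**Figure D1:**
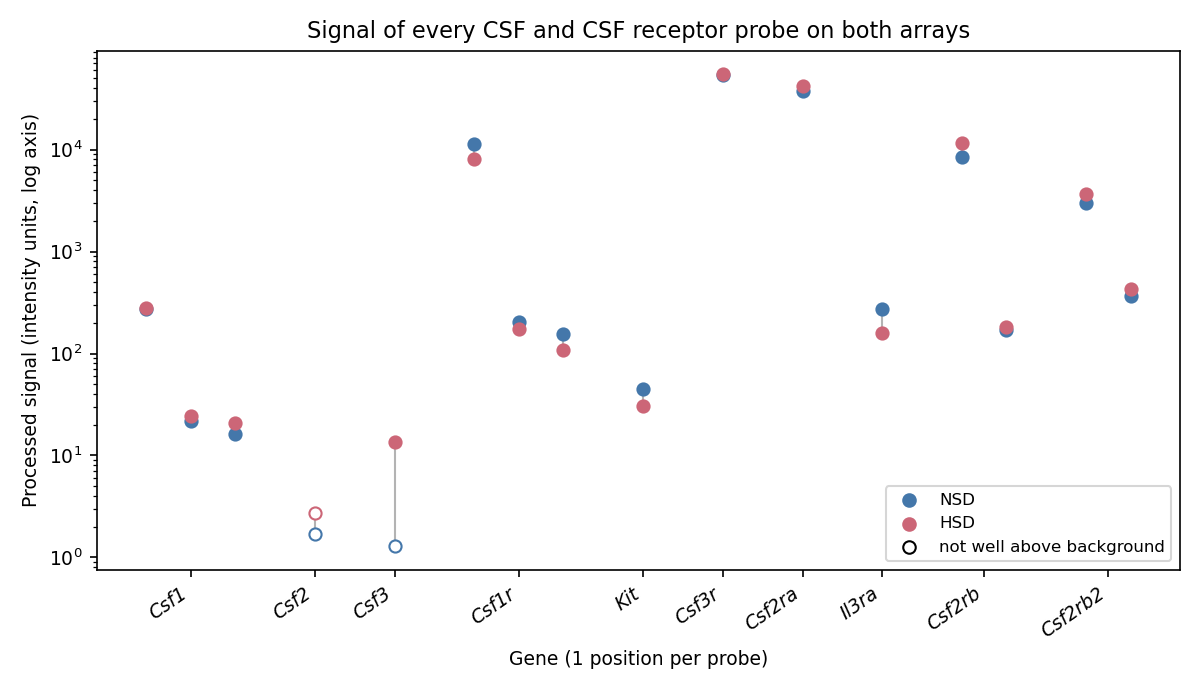
Processed signal in intensity units (log axis) of each of the 16 probes, by gene, for NSD (blue) and HSD (red), with open symbols for probes not well above background. The paired symbols nearly coincide for most probes and separate most for Csf3, at 1.30 and 13.7.

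Among the ligands, Csf1 was measured best, since its main probe was printed in 10 spots per array, of which 9 were used on each. Its spots had intensities of 274 ± 9.64 for NSD and 281 ± 9.14 for HSD (mean ± SD over 9 spots of 1 array, a measurement error and not a spread between mice). The spots ranged from 255 to 290 for NSD and from 274 to 302 for HSD, so the arrays overlapped. The raw signals differed by a factor of 1.03, and the scaled log2 fold change was 0.15. Both other Csf1 probes, assigned by the array's design to another transcript of the gene, were dim but well above background on both arrays. One had signals of 16.2 for NSD and 20.8 for HSD, a log2 fold change of 0.48. The other had 21.5 and 24.6, a log2 fold change of 0.31. All 3 probes were thus higher with HSD by less than 1.5-fold, and each kept this sign under the 7 other settings tried. For probes under 30 intensity units, the noise read from replicate spots corresponds to an SD of 0.27 for a log2 difference between single spots. That stands beside the values of 0.48 and 0.31, and it holds no error of labelling or hybridisation between arrays.

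Csf2, the gene of GM-CSF, was not detected above background in either pool. Its probe was also printed in 10 spots per array. On the NSD array 8 spots were used, with intensities from 1.37 to 2.23 and a median of 1.64. On the HSD array 10 spots were used, from 1.17 to 5.28 with a median of 2.44. None of the NSD spots and 1 of the HSD spots was called well above background. The spots of the arrays overlapped and no fold change is given, because both levels lie under the lowest signals that the software separated from background, 4.61 for NSD and 4.39 for HSD. Csf3, the gene of G-CSF, had a signal of 1.30 for NSD, not well above background, and of 13.7 for HSD, where it was well above background. This made Csf3 at least 3.21-fold higher with HSD, measured against the lowest signal well above background on the NSD array. A single spot per array measured Csf3 and the HSD signal was low. With the normexp background correction the bound was 0.35 on the log2 scale in place of 1.68, which is under 1.5-fold.

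**Figure D2:**
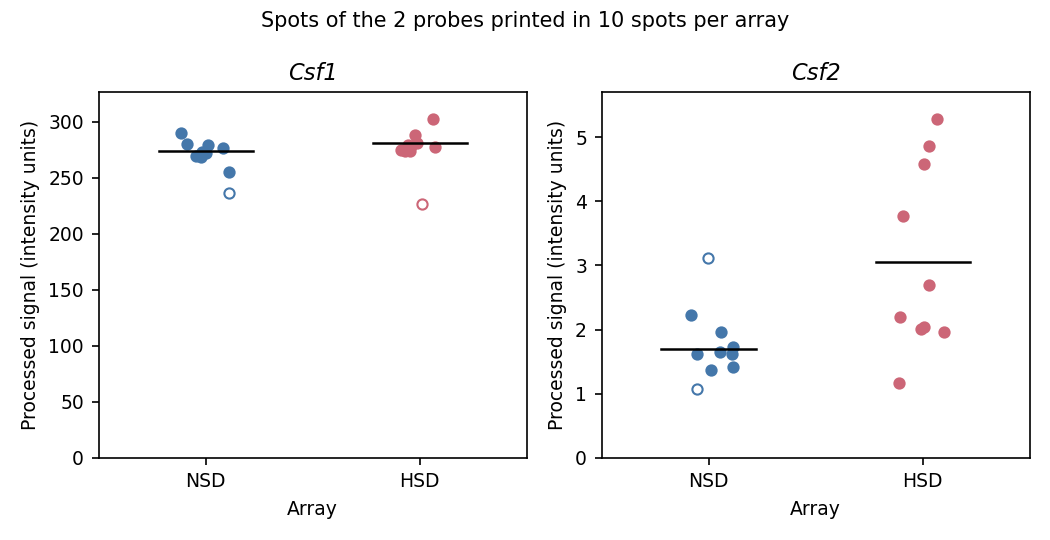
Intensity of the single spots of the Csf1 probe (left) and the Csf2 probe (right) on the NSD and HSD arrays, with outlier spots drawn open and the mean of the other spots as a line. The Csf1 spots used lie between 255 and 302 on both arrays, and most Csf2 spots lie under the detection limits of 4.61 and 4.39.

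Csf1r, the M-CSF receptor gene that marks monocytes and macrophages, had 3 probes, all with a lower scaled signal under HSD and none past 1.5-fold. The brightest had a signal of 11343 for NSD and 8112 for HSD, a log2 fold change of −0.37, or 1.29-fold lower. The second had 204 and 175, a log2 fold change of −0.10. The third had 157 and 109, a log2 fold change of −0.40. Each of the 3 probes stayed lower under all 7 other settings, with values of −0.49 to −0.36 for the brightest. For 2 spots of like brightness on different arrays, the noise read from replicate spots corresponds to an SD of the difference of 0.086 at over 1000 intensity units and of 0.091 between 100 and 1000. This SD comes from spots within an array and holds no error of labelling, hybridisation or scaling between the arrays. The difference of the second probe is close to it and those of the others are larger. Whether those exceed the error between arrays cannot be told from 1 array per diet.

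Macrophage markers were lower in the HSD pool too, by more than Csf1r. Of 8 matched macrophage genes 6 were at least 1.5-fold lower with HSD (75%, beside 10.3% of all genes). The median log2 fold change of the 8 was −1.83, or −0.67 with the normexp correction. The mannose receptor gene Mrc1 had signals of 134 for NSD and 5.49 for HSD, and Mertk, a receptor for apoptotic cells, had 95.9 and 15.4. Adgre1, a surface marker of macrophages, had 6723 and 4252, a log2 fold change of −0.55. C1qb was the exception in direction, with 50.4 and 58.4. The summed scaled signal of the 8 genes was 61.9 times the 75th percentile of the array for NSD and 38.4 times for HSD. Monocyte markers, a list that holds Csf1r itself, had a median of 0.018. At 1.5-fold 2 of the 9 monocyte markers were higher and 1 lower (22.2% and 11.1%, beside 9.86% and 10.3% of all genes). Their summed scaled signal was 585 for NSD and 649 for HSD. The part of either cell type in the value of Csf1r was not tested.

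Kit, the stem cell factor receptor gene of progenitors and mast cells, had a single probe with signals of 44.9 for NSD and 30.2 for HSD. The log2 fold change was −0.46, or 1.37-fold lower, and it was between −0.50 and −0.13 under the other settings, lowest in size with the normexp correction. Of 9 matched markers of mast cells and basophils, 1 (11.1%, beside 10.3% of all genes) was at least 1.5-fold lower, Cma1, for which only a bound is known, and the median log2 fold change was −0.18. Their summed scaled signal was 31.1 for NSD and 26.8 for HSD. The mast cell protease gene Cpa3 had signals of 408 and 262, and Fcer1a, the IgE receptor gene, had 40.0 and 39.1. Of 7 markers of blood progenitors 2 were at least 1.5-fold lower (28.6%, beside 10.3% of all genes), Cd34 (141 and 66.4) and Meis1 (38.5 and 20.0). The list had a median of −0.30 and summed scaled signals of 5.89 and 6.76. The part of these cell types in the value of Kit was not tested.

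Csf3r, the G-CSF receptor gene of granulocytes and their precursors, was nearly equal on the arrays. Its probe had a signal of 53939 for NSD and 54723 for HSD, a raw ratio of 1.01, and a scaled log2 fold change of 0.14. Under quantile normalization, cyclic loess and the deposited values the value was between −0.017 and −0.0032, so that no direction can be given. The neutrophil markers had a median log2 fold change of 0.069, which was also lower than 0 under these same settings. Of the 11 matched genes 10 were within 1.5-fold. Only Mpo, a gene of granulocyte precursors, was past it (9.09% lower, beside 10.3% of all genes), with signals of 3536 for NSD and 1723 for HSD. Signals of Camp were 61817 and 59920 and those of Ltf 51766 and 51993, and the summed scaled signal of the list was 1312 for NSD and 1369 for HSD. Among the genes within 1.5-fold, Cxcr2 had 1643 and 2168 (log2 fold change 0.51) and Mmp9 had 9522 and 11539 (0.39).

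Of the chains of the GM-CSF and IL-3 receptors, Il3ra alone was past 1.5-fold. Csf2ra, the GM-CSF alpha chain, had a signal of 37442 for NSD and 42473 for HSD, a log2 fold change of 0.30. Csf2rb, the common beta chain, had 2 probes. The brighter had 8475 and 11533, a log2 fold change of 0.56, which is 1.47-fold and just under the threshold. The dimmer had 171 and 184, a log2 fold change of 0.22. Csf2rb2, the IL-3 beta chain, likewise had 2 probes. Its brighter one had 2963 and 3694, a log2 fold change of 0.43, and its dimmer one 368 and 430, with 0.34. All 5 probes had higher values with HSD under the 7 other settings tried, by 0.15 to 0.57 for the brightest probe of each gene. Csf2rb and Csf2rb2 are near-identical copies, and whether their probes tell the transcripts apart was not tested.

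Il3ra, the IL-3 alpha chain, was lower with HSD. Its single probe had a signal of 271 for NSD and 158 for HSD, a log2 fold change of −0.66, or 1.58-fold lower, and it stayed past 1.5-fold under all 7 other settings, with values from −0.70 to −0.61. Of 27236 probes detected on both arrays, 13.2% had a change of at least this size, and 18.5% had one at least as large as that of Csf2rb. The log2 fold changes of Csf2rb and Il3ra differed by 1.22 and those of Csf2ra and Il3ra by 0.95. The related Il5ra, the IL-5 alpha chain, which also pairs with the common beta chain, had signals of 330 and 370, a log2 fold change of 0.28. Among markers of cells known for IL-3 receptors, the plasmacytoid dendritic cell genes Siglech, Ccr9 and Tcf4 had 13705 and 13214, 102 and 56.4, and 956 and 1303. Of basophil genes, Mcpt8 had 442 and 276 and Fcer1a 40.0 and 39.1. Of 8 usable genes of the dendritic cell list 2 were higher and 1 lower at 1.5-fold (25% and 12.5%, beside 9.86% and 10.3% of all genes). The list had summed scaled signals of 62.6 for NSD and 67.0 for HSD. The part of these cells in the value of Il3ra was not tested.

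**Figure D3:**
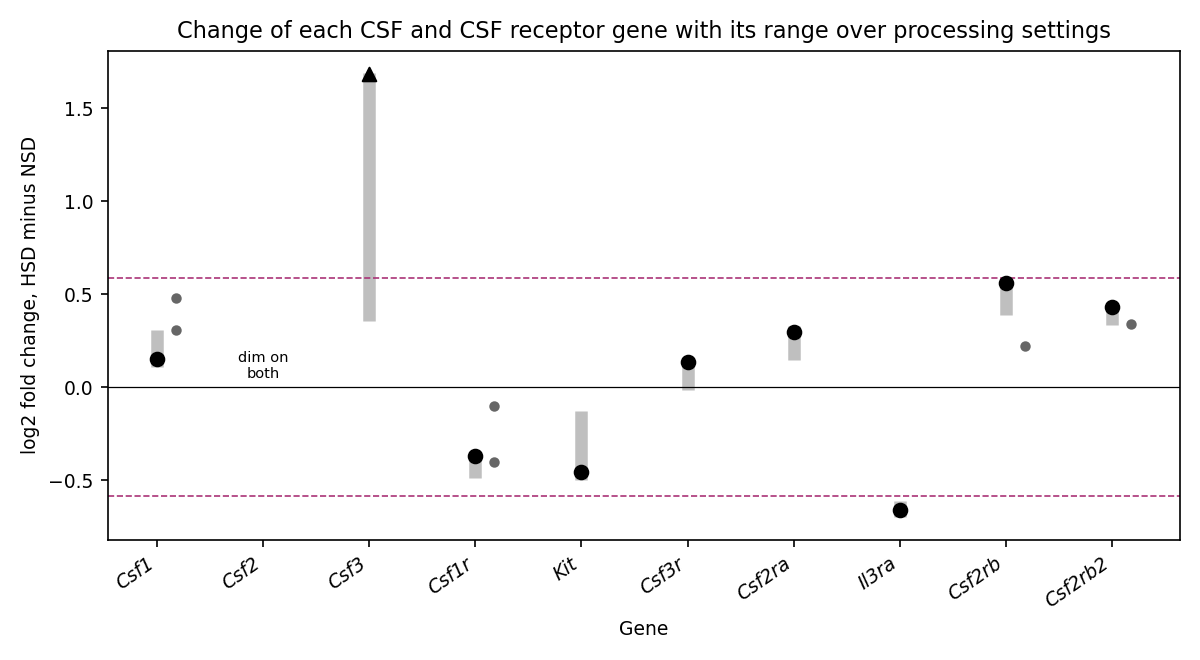
Log2 fold change (HSD minus NSD) of the brightest probe of each gene (large black symbols, a triangle for the lower bound of Csf3) and of its other probes (small grey points). Grey bars span the values under the other settings and dashed lines mark 1.5-fold. Il3ra lies below the lower line throughout, Csf2rb just under the upper one, and Csf3 crosses it.

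The starts of these genes are shown because they encode chains of the GM-CSF and IL-3 receptors while their values differed in sign. RefSeq (GRCm38.p6) gave a promoter window for 7 of the 10 genes, and none for Csf3, Csf1r and Csf2rb, the common beta chain. The 250 bases before the transcript start are given for Csf2ra (chr19:61228419-61228668, minus strand), Il3ra (chr14:14346245-14346494, plus strand) and Csf2rb2 (chr15:78305722-78305971, minus strand), each read 5′ to 3′. Capitals mark matches on either strand to GAGGAA, the core bound by the myeloid factor PU.1, or to TTGCNNAA, a form of the C/EBP site, and the 2 motifs do not overlap in these windows.
Csf2ra: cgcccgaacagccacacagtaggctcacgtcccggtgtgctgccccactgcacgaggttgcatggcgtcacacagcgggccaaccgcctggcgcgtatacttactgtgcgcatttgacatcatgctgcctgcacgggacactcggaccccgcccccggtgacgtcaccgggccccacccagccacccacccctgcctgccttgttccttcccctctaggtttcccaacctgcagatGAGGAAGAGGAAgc
Il3ra: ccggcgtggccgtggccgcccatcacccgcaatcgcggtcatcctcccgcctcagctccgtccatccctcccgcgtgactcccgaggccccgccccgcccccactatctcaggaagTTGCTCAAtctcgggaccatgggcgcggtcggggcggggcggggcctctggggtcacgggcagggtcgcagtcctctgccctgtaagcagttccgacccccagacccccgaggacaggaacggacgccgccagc
Csf2rb2: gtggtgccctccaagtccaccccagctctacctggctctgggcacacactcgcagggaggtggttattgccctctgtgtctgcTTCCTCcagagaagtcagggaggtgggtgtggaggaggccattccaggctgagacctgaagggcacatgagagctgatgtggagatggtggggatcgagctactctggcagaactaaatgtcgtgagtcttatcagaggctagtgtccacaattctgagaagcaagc
The Csf2ra window holds GAGGAA 2 times in a row, at 14 and 8 bases before the start, and the Csf2rb2 window holds it once on the other strand, at 167 bases. The Il3ra window holds no GAGGAA and holds the C/EBP form once, at 134 bases. The motif GAGGAA was also found in the windows of Kit and Csf3r, and the C/EBP form in that of Csf2. Of 32851 promoter windows of this length, 23.3% hold GAGGAA and 9.56% hold TTGCNNAA on either strand, so either match is common. These matches describe the sequence and do not show binding. The genes of these factors differed by less than 1.5-fold between the arrays. Spi1, which encodes PU.1, had signals of 372 for NSD and 403 for HSD. Of the C/EBP genes, Cebpb had 32792 and 35173, Cebpa had 217 and 187, and Cebpe had 13555 and 11991. None of the 8 transcription factor genes listed as acting on CSF receptor genes was past 1.5-fold, and their median log2 fold change was 0.086.

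The other ligands and receptors of the family did not reach 1.5-fold either. Il34, the second ligand of the M-CSF receptor, had signals of 12.98 for NSD and 17.9 for HSD, a log2 fold change of 0.57 that was 0.16 with the normexp correction. Il3 had 33.6 and 36.2. Il5 was too dim to be measured on either array. Kitl, the ligand of Kit, had 18.1 and 15.3. Flt3l had 639 and 507, and its receptor gene Flt3, of early progenitors and dendritic cells, had 48.7 and 36.6, log2 fold changes of −0.22 and −0.30.

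The CSF signalling list held 59 genes. They are the related ligands and receptors, genes that act with or downstream of the receptors, and the transcription factors listed above. Of the 59, 58 were matched and 56 were usable. At 1.5-fold 6 were higher (10.7%) and 2 lower (3.57%), beside 9.86% and 10.3% of all genes, and the median log2 fold change was 0.19 beside 0.045. The list median lay 0.084 to 0.15 above that of all genes under the scaling used, the other scalings, the normexp correction, the deposited values and with outlier spots kept. Among the receptor partners and proximal kinases, Btk had signals of 1088 for NSD and 1774 for HSD (log2 fold change 0.82), and its second probe had a log2 fold change of 0.96. Jak2, the kinase bound to the beta chain, had 1518 and 1665, and Tyrobp, an adaptor that works with the M-CSF receptor, had 31357 and 30768. Of the STAT genes that carry the signal to the nucleus, Stat5b had 7329.5 and 7227 on its brighter probe, with a log2 fold change of −0.41 on the other one. Stat5a had 722 and 463, a log2 fold change of −0.53, and Stat3 had 5056 and 5440.

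Among adaptors and lipid kinases, the adaptor gene Shc1 had signals of 2952 for NSD and 4551 for HSD (log2 fold change 0.74). Pik3cd, the leukocyte PI3K catalytic subunit, had 2711 and 3870 on its brightest probe (0.63), while its other probes had log2 fold changes of 0.18 and 0.40. Of the negative regulators, Cbl, a ubiquitin ligase that removes activated receptors from the surface, had 1158 and 1764 (0.72). Socs3, an inhibitor of G-CSF receptor signalling, had 1515 and 4177 and the largest difference of the list (1.58). Cish, a feedback gene induced through STAT5, had 155 and 114 (−0.33), and Socs1 had 240 and 169 (−0.39). Socs2 had 50.6 and 60.0 (0.36). Of these 4 feedback genes Socs3 alone was past 1.5-fold. Among target and survival genes, Pim2 had 10.8 and 19.4 (0.96, or 0.28 with the normexp correction). The immediate-early genes Egr1 and Fos were lower, with 773 and 437 (−0.71) for Egr1 and 5514 and 2633 (−0.95) for Fos. Pim1, a STAT5 target, had 184 and 203, and Mcl1, a survival gene of myeloid cells, had 11804 and 15283 (0.49). Btk, Shc1, Cbl, Socs3, Egr1 and Fos stayed past 1.5-fold under all 7 other settings, Pim2 under 6 of them, and Pik3cd under 4.

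**Figure D4:**
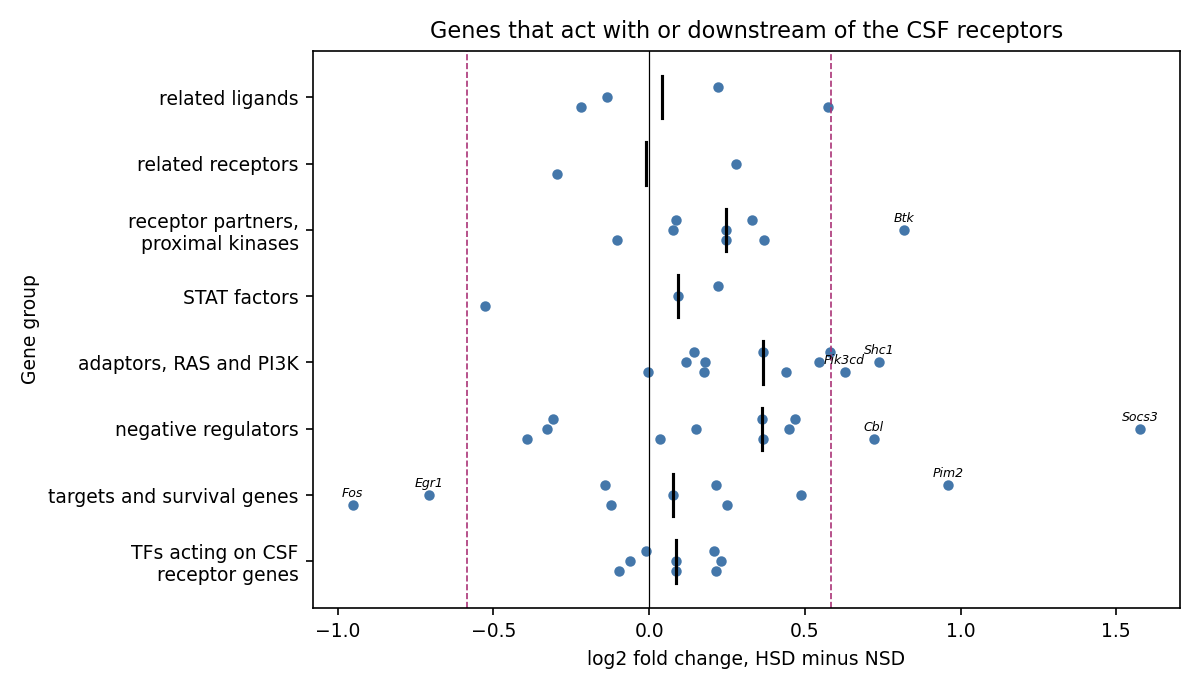
Log2 fold change (HSD minus NSD) of each usable gene of the CSF signalling list, by role. Black bars are the median of each role and dashed lines mark 1.5-fold. The roles include related ligands and receptors and transcription factors that act on CSF receptor genes. The genes named in the plot are the 6 higher and 2 lower ones, and Socs3 lies farthest out at 1.58.

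Transcripts of cells that make these factors were also looked at. Of 7 usable carcinoma cell markers 3 were at least 1.5-fold higher with HSD (42.9%, beside 9.86% of all genes, bright and dim). They were Epcam (14.5 and 21.8), Krt8 (8.68 and 12.2) and Krt18 (15.9 and 25.0), all dim, and no marker was lower at 1.5-fold. Their log2 fold changes were 0.70, 0.61 and 0.76. At such signals the noise between replicate spots corresponds to an SD of 0.27 for a log2 difference. The similarly dim Pim2 fell from 0.96 to 0.28 with the normexp correction. Cdh1, which encodes E-cadherin, had 45.0 and 30.8, a log2 fold change of −0.43. The list had summed scaled signals of 0.57 for NSD and 0.64 for HSD over its 8 matched genes. Krt19 was too dim to be measured on either array. Carcinoma cells of this line are known to secrete G-CSF, and the part of their transcripts in the HSD signal of Csf3 was not tested. Of 5 usable fibroblast markers 2 were at least 1.5-fold lower (40%, beside 10.3% of all genes), Col3a1 (11.1 and 4.81) and Dcn (9.82 and 5.20). Of the same markers 1 was higher, Pdgfrb (26.1 and 36.4), which is 20% beside 9.86% of all genes. The list had a median log2 fold change of −0.55 and summed scaled signals of 0.67 and 0.63. Pdgfra and Lum were too dim on both arrays. Endothelial markers had summed scaled signals of 1.99 and 2.22, with none of 5 usable genes past 1.5-fold. Of 7 usable T and NK cell markers 1 (14.3%, beside 10.3% of all genes) was at least 1.5-fold lower, Cd3e (115 and 49.8). Cd3d had 1501 and 1871, and the list had summed scaled signals of 10.6 and 12.7. Eosinophil genes, of cells that respond to IL-5 and GM-CSF, had 3 of 5 markers at least 1.5-fold lower (60%, beside 10.3% of all genes). Among them were Prg2 (168 and 49.4) and Ccr3 (33.0 and 13.2). The 2 brightest markers of the list were within 1.5-fold, Siglecf (247 and 248) and Il5ra (330 and 370). The list had summed scaled signals of 3.14 and 2.94. B cell markers had none past 1.5-fold, and summed scaled signals of 24.3 and 30.6.

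**Figure D5:**
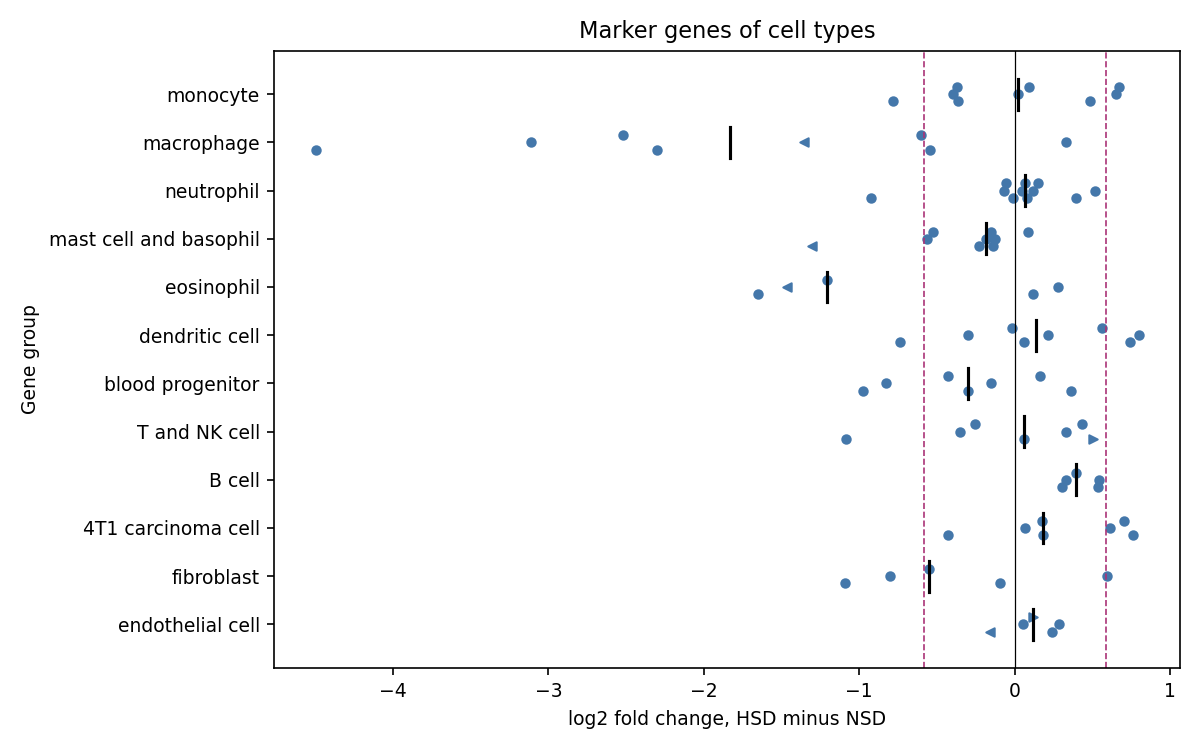
Log2 fold change (HSD minus NSD) of usable marker genes by cell type, with the median of each list as a black bar, 1.5-fold as dashed lines and arrowheads for genes with a bound only. The macrophage genes lie far to the left, with a median of −1.83, while the neutrophil genes centre on 0.069.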

How the data were processed

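RNA of isolated tumour M-MDSCs was labelled with Cy3 and hybridised to Agilent Mouse GE v2 arrays, 1 for each diet, both on 1 slide. The authors' deposited files hold the output of Feature Extraction 11.0.1.1, whose processed signal is an intensity corrected for background within the array and not normalized between arrays. The spot and background medians, also deposited intensities, served an alternative correction. The authors also deposited log2 values made with GeneSpring, whose method was not stated. Both columns have the same median (4.61) and the same 75th percentile (7.89). These values were an alternative, which may in part repeat the setting with quantile normalization.

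Control spots and 162 (NSD) and 179 (HSD) outlier spots were left out, signals were taken to log2, the spots of each probe were averaged, and each array's 75th percentile was subtracted. Probes with at least 50% of spots well above background counted as such. Where a probe was dim on 1 array its fold change is a lower bound, computed from whichever was higher there, its own signal or the lowest detected one. RefSeq transcripts of GRCm38.p6 named 27223 of 39413 probes (69.1%), and the brightest probe stood for a gene. Since the array was designed on another assembly, coordinates of probes are not given, and probe sequences were not used here. Measurement noise was the SD between spots on the same array of 289 probes printed repeatedly. No test was run, since each diet had 1 array. All members were named, with the related ligands and receptors and each gene of the signalling list past 1.5-fold. Further listed genes were picked as examples with their values known. The members and lists were chosen with earlier results of these data known. Certain listed genes were left out of the lists and are not reported here. Counting was checked on simulated data. The software was limma 3.58.1 in R 4.3.3, and numpy 2.4.6, pandas 2.3.3 and matplotlib 3.10.9 in Python 3.11.15.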

Additional observations from a re-analysis of the deposited data

How the results depend on the processing

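The settings tried were quantile normalization, cyclic loess, scaling on the median or on detected probes, normexp correction (offset 50), the deposited values, outlier spots kept, the median over a gene's probes, other filters and a 2-fold threshold. Of the 10 genes, 0 were higher at 1.5-fold with the normexp correction or when only probes well above background on both arrays were counted, and 2 without a filter on dim probes, which adds Csf2. At 2-fold, 0 were lower. In the signalling list 1 gene was higher and 0 were lower at 2-fold. Over the whole array 3030 probes were higher and 2639 lower at 1.5-fold, against 961 and 923 with the normexp correction, 793 and 1039 at 2-fold, and 6010 and 3757 without a filter. The median log2 fold change of the members was 0.30 with the median over a gene's probes, against 0.15, and between 0.11 and 0.16 under the other settings. The sign of Csf3r changed under quantile normalization, cyclic loess and the deposited values. No called member reversed. Leaving out an array was not possible with 1 array per diet. No paired analysis was possible because the diets share only 1 replicate number, given in accession order. The detection limit bears on Csf2 and Csf3.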
